A study of Mus musculus with 13 samples.

Results

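Of the 26264 genes measured in mouse right ventricle, 9 encode the voltage-gated potassium channel subunits described here: the pore subunits Kcnd2, Kcnd3, Kcna4, Kcna5, Kcnq1 and Kcnh2, the silent subunit Kcnv2, and the accessory subunits Kcnip2 and Kcne1. They were taken by gene symbol, and all 9 passed the filter on low counts. Libraries came from 6 wild-type samples and from 7 samples of a knock-in mouse with the F536C substitution in Dsg2, the gene of desmoglein 2, a cadherin of the desmosomes that tie cardiomyocytes together. The series presents this mouse as a counterpart of the human F531C mutation and asks how PPAR-gamma signalling bears on fibrosis, lipid accumulation and arrhythmia in arrhythmogenic cardiomyopathy. A substance that inhibits PPAR-gamma is mentioned in the study's design, but the titles of these libraries name only genotype. The labels give no strain, age, sex, batch or zygosity, and do not state that each library is a separate animal, so the p-values speak only to variation among these samples, part of which may be technical.

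Voltage-gated potassium channels open as the membrane depolarises, and the potassium that leaves the cell ends the action potential. In the mouse ventricle, early repolarisation is carried by the fast transient outward current, for which Kcnd2 and Kcnd3 encode the Kv4 pores and Kcnip2 the calcium-binding partner KChIP2. Kcna5 encodes a pore of a slower current, Kcna4 one of the slow transient outward current, and Kcnq1 with Kcne1 and Kcnh2 encode the slow and rapid delayed rectifiers that carry much of the repolarisation in larger mammals.

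Totals ran from 14498336 to 29848597 reads per library. Dsg2 had 9.48 to 16.0 TPM (the deposited abundance per length and depth, n = 7) in knock-in and 16.9 to 25 TPM (n = 6) in wild type. The genotypes did not overlap, with knock-in below wild type, a pattern that 2.81% of tested genes had. Read numbers by gene do not reveal the substitution, so the Dsg2 level cannot check the labels. Knock-in 4, 5 and 6 stood apart: non-whole read numbers made up 10.2% to 10.7% of their genes, against 3.07% to 3.79% elsewhere, and their summed epithelial and mesothelial markers reached 1699 to 3062 CPM (counts scaled by depth and TMM factor), against at most 179 CPM elsewhere. Results are therefore given for 13 libraries and for the 10 without these 3. Of the 18 ventricular cardiomyocyte markers, 15 were lower and 0 higher in knock-in with 13 libraries, and 13 were lower and 0 higher with 10. Their summed level was 68521 to 100864 CPM in wild type, 30048 to 59928 CPM in knock-in and 40517 to 59928 CPM in knock-in 1, 2, 3 and 7, and no marker of that list was at 0. In RNA of whole tissue, fewer cardiomyocytes and less RNA per cardiomyocyte cannot be told apart.

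Of the 9 genes, 7 were lower and 0 higher in knock-in with 13 libraries, and the same 7 were lower with 10: Kcnd2, Kcnd3, Kcnip2, Kcnv2, Kcnq1, Kcnh2 and Kcne1. Kcna5 and Kcna4 did not pass the test in either set. The test was edgeR's quasi-likelihood F test with TMM scaling, with p adjusted by Benjamini-Hochberg over all tested genes and a threshold of 0.05. Of all 14588 genes tested with 13 libraries, 21.0% were lower and 23.6% higher, and of the 14518 tested with 10 libraries 21.3% were lower and 22.3% higher. The median log2 fold change of the 9 genes was -1.25 with 13 libraries and -1.0 with 10, against 0.08 and 0.02 for all tested genes. In TPM, Kcnd2, Kcnd3, Kcnip2 and Kcnv2 had all knock-in libraries below the lowest wild-type one, a pattern that 2.81% of tested genes had with 13 libraries and 3.46% with 10. In TMM-scaled CPM, Kcnq1 and Kcnh2 joined these 4, and the pattern was held by 10.5% of tested genes with 13 libraries and 15.1% with 10. TPM and TMM differ in scale here: the median log2 fold change of all genes was 0.40 and 0.34 on log2(TPM + 1), and 0.33 and 0.26 when library totals replaced TMM, so fold changes in TPM are smaller for falling genes.

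**Figure D1:**
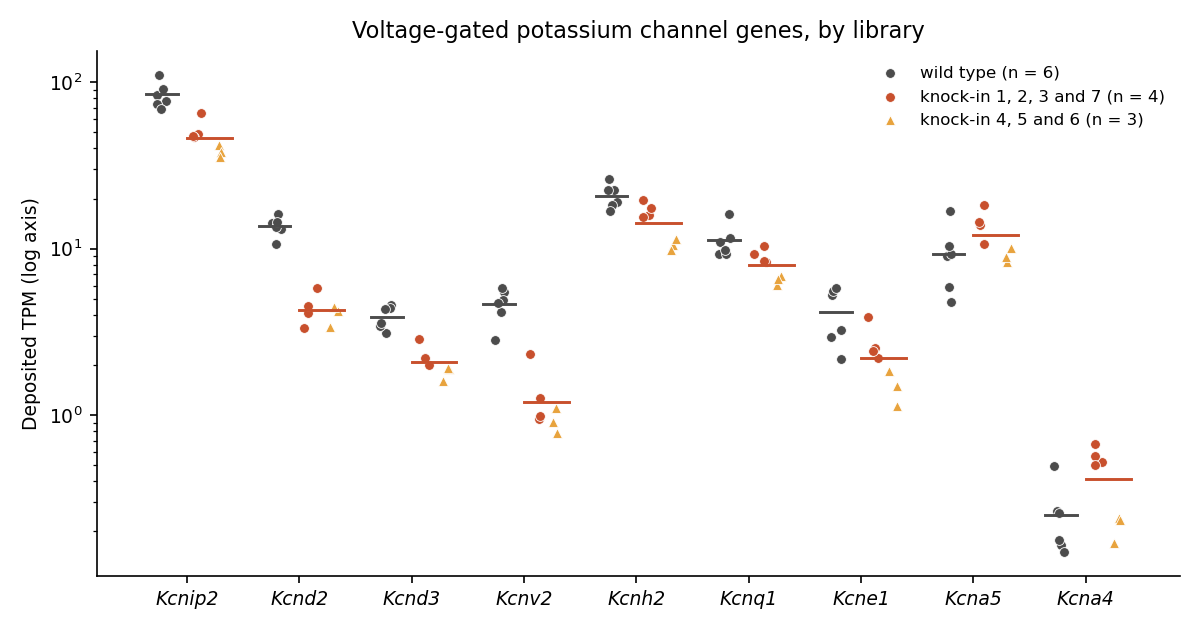
Deposited TPM of the 9 genes on a log axis, with each point 1 library (grey, wild type; red, knock-in 1, 2, 3 and 7; orange triangles, knock-in 4, 5 and 6) and bars for the means of the 6 wild-type and all 7 knock-in libraries. Kcnip2, Kcnd2, Kcnd3 and Kcnv2 show no overlap between genotypes, and the 7 knock-in values of Kcnd2 lie between 3.35 and 5.82 TPM, below the lowest wild-type value of 10.7 TPM.

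Kcnd2, the Kv4.2 pore of the fast transient outward current, had 10.7 TPM in the lowest, 13.8 at the median and 16.1 in the highest of 6 wild-type libraries, from 922 to 1385 reads each. In knock-in 1, 2, 3 and 7 it stood at 4.13, 3.35, 5.82 and 4.51 TPM, and in knock-in 4, 5 and 6 at 3.37, 4.24 and 4.47 TPM, from 235 to 453 reads each. The genotypes did not overlap, and the 3 libraries that stood apart in other respects lay within the range of the other knock-in libraries for this gene. Mean TPM was 13.7 ± 1.80 (SD, n = 6) in wild type and 4.27 ± 0.834 (SD, n = 7) in knock-in, 31.2% of wild type. The log2 fold change was -2.12 ± 0.14 (SE, edgeR adjusted p = 6.23e-07) with 13 libraries and -2.01 ± 0.15 (SE, edgeR adjusted p = 1.44e-06) with 10.

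Kcnd3, the Kv4.3 pore that can join Kcnd2 in the same channels, had 3.12, 3.95 and 4.58 TPM in the lowest, median and highest wild-type libraries. Its values were 2.21, 2.00, 2.85 and 2.19 TPM in knock-in 1, 2, 3 and 7 and 1.60, 1.91 and 1.91 TPM in knock-in 4, 5 and 6. Again no knock-in library reached the wild-type range, though knock-in 3 came near it. The fall was smaller than that of Kcnd2, with a log2 fold change of -1.34 ± 0.15 (SE, edgeR adjusted p = 2.70e-05) with 13 libraries and -1.16 ± 0.14 (SE, edgeR adjusted p = 3.44e-05) with 10. In an older gene annotation, GENCODE M21, 165 bases of Kcnd3 exons overlap exons of Kcnd3os on the opposite strand, and all Kcnd3 read numbers were whole.

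Kcnip2, whose product KChIP2 raises the surface level of Kv4 channels and slows their inactivation, was the most abundant of the 9 genes. It had 68.6, 80.7 and 111 TPM in the lowest, median and highest wild-type libraries. Knock-in 1, 2, 3 and 7 held 49.0, 46.9, 65.4 and 47.5 TPM, and knock-in 4, 5 and 6 held 42.1, 37.9 and 35.7 TPM. The highest knock-in library, number 3, fell just short of the lowest wild-type one, and knock-in 4, 5 and 6 were the lowest of all. Mean TPM went from 84.4 ± 15.2 (SD, n = 6) to 46.3 ± 9.78 (SD, n = 7), with a log2 fold change of -1.25 ± 0.14 (SE, edgeR adjusted p = 3.09e-05) with 13 libraries and -1.05 ± 0.11 (SE, edgeR adjusted p = 1.23e-05) with 10.

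RefSeq promoter windows of build GRCm38.p6, an older build than the one the submitters name, were found for 6 of the 9 genes: Kcnd2, Kcnd3, Kcnip2, Kcna4, Kcna5 and Kcnh2. The bases before the start of Kcnd2 and Kcnip2, which were lower in every knock-in library, and of Kcna5, which did not pass the test, are printed to show that they differ in composition. Each runs 5′ to 3′ on the gene's strand and ends at the base before the start, and capitals mark GC boxes, the letters GGGCGG or their reverse complement CCGCCC. Kcnd2 is at chr6:21215096-21215345 (plus strand), Kcnip2 at chr19:45816064-45816313 (minus strand) and Kcna5 at chr6:126535556-126535805 (minus strand).
Kcnd2: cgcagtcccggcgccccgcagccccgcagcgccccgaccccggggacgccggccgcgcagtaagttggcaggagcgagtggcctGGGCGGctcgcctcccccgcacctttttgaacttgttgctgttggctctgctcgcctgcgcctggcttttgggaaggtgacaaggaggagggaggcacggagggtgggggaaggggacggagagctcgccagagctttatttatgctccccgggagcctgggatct
Kcnip2: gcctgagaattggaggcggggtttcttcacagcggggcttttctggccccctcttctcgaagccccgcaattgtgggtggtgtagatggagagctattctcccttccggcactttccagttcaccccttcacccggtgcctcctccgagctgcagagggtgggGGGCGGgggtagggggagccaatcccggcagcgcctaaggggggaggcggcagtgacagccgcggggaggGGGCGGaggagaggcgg
Kcna5: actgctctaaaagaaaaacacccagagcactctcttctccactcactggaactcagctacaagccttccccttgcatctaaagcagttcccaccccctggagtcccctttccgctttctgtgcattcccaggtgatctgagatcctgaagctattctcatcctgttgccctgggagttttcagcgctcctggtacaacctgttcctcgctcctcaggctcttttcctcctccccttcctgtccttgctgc
Over windows of 300 bases that also take in the first 50 after the start, GC boxes, overlapping ones counted singly, numbered 1 in Kcnd2, 2 in Kcnip2, 3 in Kcna4, 3 in Kcnh2, 0 in Kcnd3 and 0 in Kcna5, and 35.7% of the 32851 promoters in the table hold at least 1. CpG pairs numbered 26 in Kcnd2, 25 in Kcnd3, 18 in Kcnip2, 20 in Kcna4 and 19 in Kcnh2 but 4 in Kcna5, against a median of 7 over all promoters. Among genes with a window, Kcnd3 fell and had 0 GC boxes, while Kcna4 did not pass the test and had 3. For Kcnv2, Kcnq1 and Kcne1, which also fell, no window was found. A relation between these counts and the fold changes was not tested.

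The balance between these subunits also differed by genotype, which was tested by exact two-sided permutation of genotype over libraries on log2 TPM ratios, with p adjusted over 3 ratios. The ratio of Kcnd2 to Kcnd3 was 3.09 in the lowest, 3.47 at the median and 4.07 in the highest wild-type library. It was 1.87, 1.68, 2.04 and 2.06 in knock-in 1, 2, 3 and 7 and 2.11, 2.23 and 2.34 in knock-in 4, 5 and 6. Every knock-in ratio lay under every wild-type one. The log2 difference was -0.79 with 13 libraries (exact p = 0.000583, the smallest that test can give; adjusted p = 0.00175) and -0.88 with 10 (exact p = 0.00476, again the smallest possible; adjusted p = 0.0143). The ratio of Kcnip2 to the sum of Kcnd2 and Kcnd3 moved the other way: it was 3.80, 4.76 and 6.10 in the lowest, median and highest wild-type libraries. Knock-in 1, 2, 3 and 7 had 7.72, 8.77, 7.54 and 7.09, and knock-in 4, 5 and 6 had 8.48, 6.16 and 5.59. Only knock-in 6 fell inside the wild-type range, whose highest value was that of wild type 1. The log2 difference was 0.60 with 13 libraries (exact permutation p = 0.00233, adjusted p = 0.00350) and 0.70 with 10 (exact permutation p = 0.00476, adjusted p = 0.0143). The fall of Kcnip2 was thus smaller than that of the sum of its pore partners. A ratio within a library does not depend on the scaling between libraries.

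**Figure D2:**
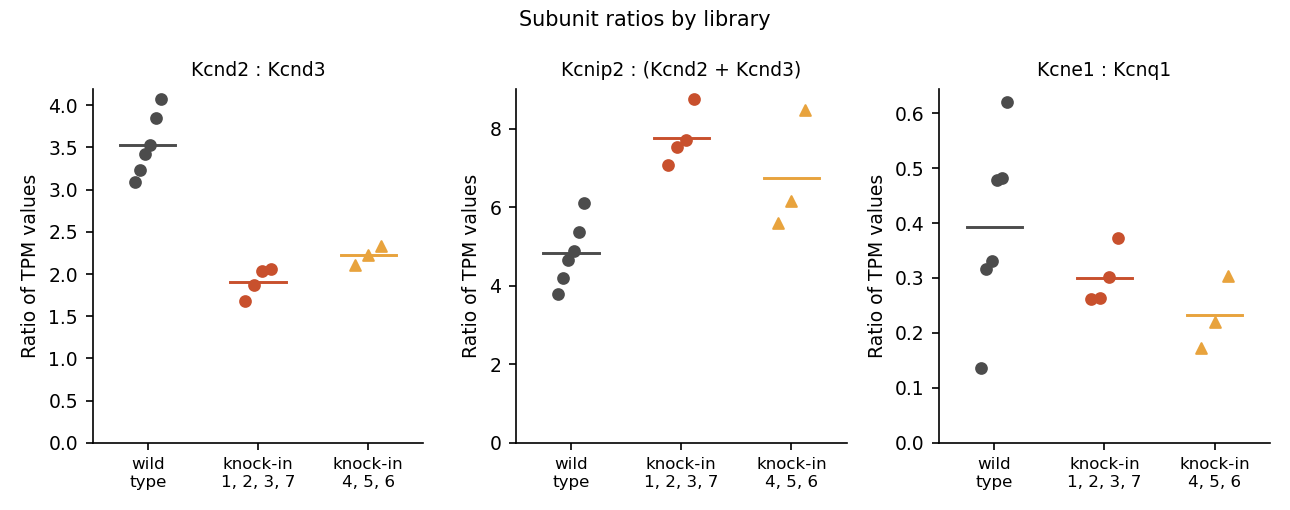
Ratios of deposited TPM by library for Kcnd2 to Kcnd3, Kcnip2 to Kcnd2 plus Kcnd3, and Kcne1 to Kcnq1, each axis starting at 0, with bars for group means. The Kcnd2 to Kcnd3 ratio is 3.09 to 4.07 in wild type and 1.68 to 2.34 in knock-in, whereas the Kcne1 to Kcnq1 ratio spreads from 0.136 to 0.620 within wild type alone.

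Kcnv2, which encodes the silent subunit Kv8.2 that forms no channel alone and alters the pores it joins, had the largest fall of the 9 genes on the TMM scale in both sets of libraries. Its wild-type values were 2.83 TPM in the lowest, 4.79 at the median and 5.80 in the highest library. Knock-in 1, 2, 3 and 7 had 0.954, 0.987, 2.34 and 1.26 TPM, and knock-in 4, 5 and 6 had 1.10, 0.780 and 0.914 TPM, from 65 to 132 reads each. The genotypes did not overlap, but knock-in 3 was well above the other 6 knock-in libraries. Mean TPM fell from 4.65 ± 1.06 (SD, n = 6) to 1.19 ± 0.529 (SD, n = 7). The change on the log2 scale was -2.41 ± 0.26 (SE, edgeR adjusted p = 2.31e-05) with 13 libraries and -2.17 ± 0.28 (SE, edgeR adjusted p = 9.62e-05) with 10. Whether Kcnv2 fell more than Kcnd2 was not tested.

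Kcnq1, the pore of the slow delayed rectifier, had 9.33, 10.4 and 16.2 TPM in the lowest, median and highest wild-type libraries. In knock-in 1, 2, 3 and 7 it had 8.36, 8.4, 10.4 and 9.28 TPM, and in knock-in 4, 5 and 6 it had 6.88, 6.07 and 6.60 TPM. Knock-in 3 lay inside the wild-type range in TPM, while in TMM-scaled CPM the groups did not overlap (26.6 to 36 in wild type, 10.7 to 21.0 in knock-in). The log2 fold change was -0.88 ± 0.15 (SE, edgeR adjusted p = 0.000440) with 13 libraries and -0.67 ± 0.10 (SE, edgeR adjusted p = 0.000237) with 10. That call with 10 libraries was lost with limma on log2(TPM + 1) (log2 fold change -0.25, adjusted p = 0.124). Exons of Kcnq1 overlap Kcnq1ot1 on the opposite strand by 121 bases in GENCODE M21. The Kcnq1 read numbers in knock-in 4 and 5 were not whole, at 352.98 and 281.97. Whether the overlap affects the Kcnq1 values was not tested.

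Kcnh2, the ERG pore of the rapid delayed rectifier, was the most abundant pore gene of the 9 in wild type and in knock-in. Its wild-type TPM was 16.9, 20.8 and 26 in the lowest, median and highest libraries. The values were 16.0, 15.5, 19.7 and 17.5 TPM in knock-in 1, 2, 3 and 7, and 10.5, 9.84 and 11.4 TPM in knock-in 4, 5 and 6. Knock-in 3 and 7 overlapped the wild-type range in TPM, and knock-in 4, 5 and 6 were clearly the lowest. The log2 fold change was -0.93 ± 0.18 (SE, edgeR adjusted p = 0.00102) with 13 libraries and -0.63 ± 0.09 (SE, edgeR adjusted p = 9.18e-05) with 10, where limma on log2(TPM + 1) did not pass (log2 fold change -0.26, adjusted p = 0.0789). The deposited length of Kcnh2 varied by library, from 3565 to 3696 bases in wild type from 3689 to 3778 in knock-in 1, 2, 3 and 7 and from 3608 to 3728 in knock-in 4, 5 and 6, and how it was derived is not given in the sources used here.

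Kcne1, the single-span partner that slows Kcnq1 channels, varied most between wild-type libraries among the genes that fell. It had 2.19, 4.25 and 5.79 TPM in the lowest, median and highest wild-type libraries, 2.20, 2.53, 3.87 and 2.41 TPM in knock-in 1, 2, 3 and 7, and 1.5, 1.84 and 1.13 TPM in knock-in 4, 5 and 6. All 4 of the former knock-in libraries lay inside the wild-type range, whose lower end was wild type 2. Of these, only knock-in 3 also exceeded the next lowest wild-type library, wild type 3 at 2.94 TPM. The log2 fold change was -1.34 ± 0.31 (SE, edgeR adjusted p = 0.00399) with 13 libraries and -1.0 ± 0.31 (SE, edgeR adjusted p = 0.0200) with 10. With 10 libraries the call did not survive leaving out knock-in 1 (adjusted p = 0.0662) or knock-in 7 (adjusted p = 0.0641), nor limma on log2(TPM + 1) (adjusted p = 0.0960). The ratio of Kcne1 to Kcnq1 did not pass the test: its log2 difference was -0.43 with 13 libraries (exact permutation p = 0.212, adjusted p = 0.212) and -0.26 with 10 (exact permutation p = 0.562, adjusted p = 0.562). Without wild type 2, whose ratio of 0.136 was the lowest of all, the difference with 13 libraries was -0.71 (exact permutation p = 0.0101).

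Kcna5, the Kv1.5 pore of a slowly inactivating potassium current of mouse myocytes, did not pass the test in either set of libraries. It had 4.77, 9.13 and 16.9 TPM in the lowest, median and highest wild-type libraries. Knock-in 1, 2, 3 and 7 had 13.9, 18.2, 14.4 and 10.6 TPM, and knock-in 4, 5 and 6 had 8.33, 10.1 and 8.88 TPM. The groups overlapped, and wild type 2 exceeded all knock-in libraries but number 2. The log2 fold change was -0.03 ± 0.25 (SE, edgeR adjusted p = 0.942) with 13 libraries and 0.25 ± 0.26 (SE, edgeR adjusted p = 0.460) with 10. Its read numbers in wild type 4 and 6 were not whole. Atrial muscle also expresses Kcna5, and atrial markers varied between libraries: 2 of 6 tested were higher in knock-in, Nppa and Dkk3, 0 were lower, and the sum of all 7 ran from 444 to 2424 CPM in wild type and from 1038 to 5557 CPM in knock-in. Nppa, a peptide gene that ventricular muscle can also express, led the knock-in sums, while Myl7, Myl4 and Sln were highest in wild type 1 among wild-type libraries, at 344, 519.6 and 373 CPM. The highest sum was that of knock-in 2, which also had the most Kcna5, while wild type 2 had the most Kcna5 of its group at a sum of 476 CPM. No atrial marker was at 0 in all libraries, Bmp10 was at 0 in 2 wild-type and 3 knock-in libraries, and the part of atrial RNA in the Kcna5 values was not tested.

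Kcna4, the Kv1.4 pore of the slow transient outward current, was the least abundant of the 9 genes, with only 12 to 43 reads per library. The wild-type values were 0.151, 0.218 and 0.496 TPM in the lowest, median and highest libraries. Knock-in 1, 2, 3 and 7 had 0.525, 0.565, 0.674 and 0.504 TPM, all above the wild-type range, a pattern that 33.5% of genes tested with 10 libraries shared. In TMM-scaled CPM the groups overlapped, with 2.06 CPM in wild type 1 and 1.74, 1.98, 2.29 and 1.51 CPM in these knock-in libraries. Knock-in 4, 5 and 6 had 0.240, 0.170 and 0.235 TPM, inside the wild-type range. The log2 fold change was 0.28 ± 0.40 (SE, edgeR adjusted p = 0.578) with 13 libraries and 0.76 ± 0.33 (SE, edgeR adjusted p = 0.0726) with 10. With 10 libraries it passed when wild type 1 was left out (log2 fold change 1.07, adjusted p = 0.00708) and when library totals replaced TMM (0.99, adjusted p = 0.0206). Wild type 1, which had the highest Kcna4 of its group, also had a summed neuron marker level of 53.5 CPM, against 5.17 to 7.50 CPM in the other 5 wild-type libraries and 6.03 to 8.14 CPM in knock-in 1, 2, 3 and 7. Of the 9 neuron markers, 8 were higher in wild type 1 than in any other wild-type library and Dbh was not. Chat was at 0 in 5 wild-type libraries and 6 knock-in libraries, and Th in 4 and 6. Knock-in 4, 5 and 6, whose Kcna4 values are given above, had sums of 107, 70.3 and 75.3 CPM, in which Tubb3 led at 47.6 to 105 CPM. The part of neuronal RNA in the Kcna4 values was not tested.

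Set against the cardiomyocyte markers of the same libraries, the 9 genes divided into 3 groups. For this comparison each library was scaled to the geometric mean of 17 of the 18 ventricular markers, leaving out Actn2, and the same edgeR test was run. Kcnd2, Kcnd3, Kcnip2 and Kcnv2 were lower than these markers in knock-in, and Kcna4 and Kcna5 were higher, with 13 libraries and with 10. On this scale 2.12% of all genes were lower and 82.1% higher with 13 libraries, and 2.60% were lower and 70.2% higher with 10. The median log2 fold change was -0.39 for the 9 genes and 1.00 for all genes with 13 libraries, and -0.40 and 0.65 with 10, so the 2 higher genes moved as most genes did on this scale.

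Kcnd2 was lower by a log2 fold change of -1.22 (edgeR adjusted p = 3.23e-05) relative to the markers with 13 libraries and -1.39 (adjusted p = 1.47e-06) with 10. Kcnv2 was at -1.56 (edgeR adjusted p = 3.82e-05) and -1.55 (adjusted p = 1.93e-05). The falls of Kcnd3, at -0.45 (edgeR adjusted p = 0.00317) and -0.53 (adjusted p = 0.00391), and of Kcnip2, at -0.39 (edgeR adjusted p = 0.00460) and -0.44 (adjusted p = 0.00477), were much smaller on this scale. Kcnq1, at -0.02 (edgeR adjusted p = 0.870) and -0.04 (adjusted p = 0.804), and Kcnh2, at -0.09 (edgeR adjusted p = 0.510) and -0.01 (adjusted p = 0.959), showed no called difference from the markers. Kcne1 was at -0.53 (edgeR adjusted p = 0.0699) and -0.40 (adjusted p = 0.196). It passed without wild type 2 in both sets (adjusted p = 0.0121 and 0.0406), and with 13 libraries without knock-in 3 (adjusted p = 0.0461) or with Ttn, Ryr2, Myom1 and Ldb3 as the only markers (adjusted p = 0.0450). Kcna5 was at 0.80 (edgeR adjusted p = 0.00478) and 0.84 (adjusted p = 0.00566) and Kcna4 at 1.02 (adjusted p = 0.0146) and 1.34 (adjusted p = 0.00328), which under TMM were not called and, for Kcna5 with 13 libraries, had the opposite sign.

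**Figure D3:**
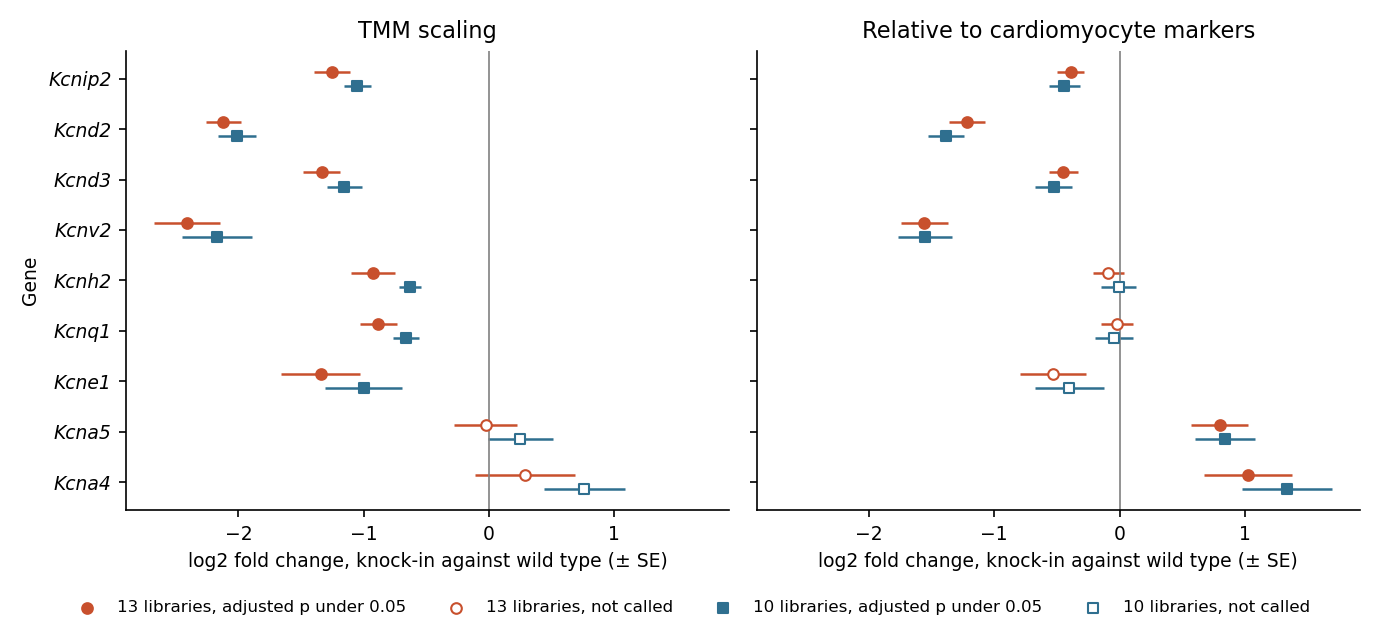
Log2 fold change of each gene, knock-in against wild type, with SE bars, under TMM scaling (left) and relative to cardiomyocyte markers (right), for 13 libraries (circles) and 10 (squares); filled symbols passed an adjusted p of 0.05. Kcnd2 and Kcnv2 lie furthest left on both scales, at -2.12 and -2.41 under TMM and -1.22 and -1.56 relative to the markers with 13 libraries, and Kcnq1 and Kcnh2 sit near 0 on the right.

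The 9 genes together had a summed level of 152 ± 25.6 TPM (SD, n = 6) in wild type, 90.9 ± 19.4 TPM (SD, n = 7) in knock-in and 104 ± 14.2 TPM (SD, n = 4) in knock-in 1, 2, 3 and 7. TPM is per length, so levels of different genes can be compared on it. In wild type the order was Kcnip2, Kcnh2, Kcnd2, Kcnq1, Kcna5, Kcnv2, Kcne1, Kcnd3 and Kcna4. Kcnip2 and Kcnh2 stood clear of the next gene in every library, and so did Kcnd3 of Kcna4, whereas the ranges of all neighbours from Kcnd2 down to Kcnd3 overlapped. In knock-in the order was Kcnip2, Kcnh2, Kcna5, Kcnq1, Kcnd2, Kcne1, Kcnd3, Kcnv2 and Kcna4, where the ranges of Kcnip2 and Kcnh2, of Kcnq1 and Kcnd2, and of Kcnv2 and Kcna4 did not overlap and those of the other neighbours did. Kcnd2 dropped below Kcna5 and Kcnq1, and it was under Kcnq1 in 7 of 7 knock-in libraries, while in wild type it was above Kcnq1 in 4 of 6. As a share of the summed TPM, Kcnd2 went from 9.10% ± 1.38 (SD, n = 6) to 4.80% ± 0.967 (SD, n = 7) and Kcnv2 from 3.07% ± 0.661 to 1.28% ± 0.313. The Kcna5 share went from 5.98% ± 1.93 to 13.2% ± 2.66, with every knock-in library (lowest 11%) above every wild-type one (highest 8.49%). Kcnip2 held the largest share in both genotypes, at 55.3% ± 1.87 in wild type and 51.1% ± 2.54 in knock-in. In knock-in 1, 2, 3 and 7 the order was the same, with the ranges of Kcna5 and Kcnq1 also apart, and the shares were 4.25% ± 0.599 (SD, n = 4) for Kcnd2, 1.29% ± 0.413 for Kcnv2, 13.8% ± 3.42 for Kcna5 and 49.9% ± 1.86 for Kcnip2. Shares add to the whole, so a fall of 1 gene raises the others, and they were not tested.

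**Figure D4:**
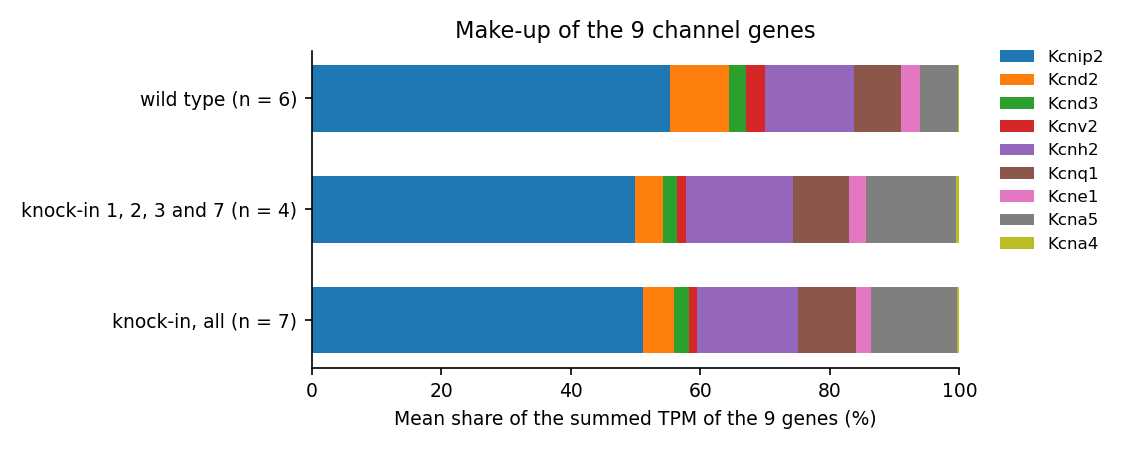
Mean share of the summed TPM of the 9 genes held by each gene, in wild type (n = 6), in knock-in 1, 2, 3 and 7 (n = 4) and in all knock-in libraries (n = 7). The Kcna5 segment goes from 5.98% in wild type to 13.2% in all knock-in libraries and the Kcnd2 segment from 9.10% to 4.80%.

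Within genotypes, the highest correlations joined Kcnd2, Kcnd3 and Kcnv2, and Kcnip2 with Kcnh2 and Kcnq1. After subtracting group means of log2 CPM, the highest Pearson r with 10 libraries were those of Kcnd2 with Kcnv2 (0.924), Kcnd3 with Kcnv2 (0.898), Kcnd2 with Kcnd3 (0.844), Kcnip2 with Kcnh2 (0.819) and Kcnip2 with Kcnq1 (0.787). Over the 36 pairs the median was 0.31, 26 were positive, and the lowest was that of Kcna4 with Kcnq1 (-0.454). With 13 libraries all 36 were positive, from 0.147 to 0.925, with a median of 0.57; knock-in 4, 5 and 6 are among those points and share low cardiomyocyte markers. The points of each r share library depth and TMM factors, and no test was made. Single libraries also stand out: for Kcnd2, Kcnd3 and Kcnv2, wild type 1 was the lowest of its group, at 48.9, 20.3 and 12.9 CPM. For the same genes knock-in 3 was the highest of its group, at 21.8, 15.1 and 8.65 CPM. How far the r of these genes rest on those libraries was not tested. Knock-in 3 had the highest TPM of the knock-in libraries for 8 of the 9 genes, Kcna5 being the exception. It also had their highest summed cardiomyocyte markers, at 59928 CPM, and the fewest reads, at 14498336. A relation of either to its levels of these genes was not tested.

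The genes whose log2 CPM was most like that of Kcnd2 over the 13 libraries, among 13881 compared, were Apbb1 (Pearson r of 0.988), Dglucy (0.987), Isoc1 (0.987), Ttll1 (0.987) and Agtpbp1 (0.986); these r include the difference between genotypes. Within genotypes over the 10 libraries, among 13660 genes, they were Gm41717 (0.981), Cxadr (0.979), Fkbp4 (0.978), A030001D20Rik (0.951) and Sec31b (0.950). No gene appeared in both lists of 5. Cxadr encodes the coxsackievirus and adenovirus receptor, a junction protein, and Fkbp4 a co-chaperone of Hsp90.

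Other pore-forming and silent subunits of the family moved in both directions with 13 libraries and, among those called, only down with 10. Of 33 listed, 18 were tested with 13 libraries, of which 5 were lower and 5 higher, against 21.0% and 23.6% of all tested genes. With 10 libraries 15 were tested, of which 4 were lower and 0 higher, against 21.3% and 22.3%. The median log2 fold change was -0.25 and -0.23. Among the other silent subunits, Kcng4 was at -1.64 in both sets (edgeR adjusted p = 0.000526 and 0.00286), from levels of at most 1.38 CPM, and Kcng2 at -0.67 and -0.41 (edgeR adjusted p = 0.00599 and 0.00963). Kcna7, a Kv1 pore of muscle, was at -0.74 and -0.66 (edgeR adjusted p = 0.00276 and 0.00964), and Kcna1 at -0.56 and -0.25, called with 13 libraries alone (edgeR adjusted p = 0.0354 and 0.106) and not when any 1 of wild type 1, 2, 5 and 6 and knock-in 4, 5 and 6 was left out. The calls of Kcng2 and Kcna7 ended under limma with log2(TPM + 1) in both sets, and under library totals with 10 libraries (adjusted p = 0.247 and 0.0777). Relative to cardiomyocyte markers only Kcng4 of the 5 was lower, against 2.12% and 2.60% of all genes. On that scale 8 of 18 and 4 of 15 were higher, against 82.1% and 70.2% of all genes. With library totals the median of the list was 0.00 and 0.02, against 0.33 and 0.26 for all genes.

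The 5 pore or silent subunits that were higher with 13 libraries, Kcns3, Kcnd1, Kcnc1, Kcna3 and Kcnh1, were not called with 10, where Kcna3 and Kcnc1 were below the filter; with library totals, Kcnd1 and Kcnh1 were called there too. Kcns3, a silent subunit, had 9.89 to 60.9 CPM in knock-in 4, 5 and 6 and at most 1.42 CPM in any other library, and log2 fold changes of 3.82 (edgeR adjusted p = 0.0170) and -0.09 (adjusted p = 0.835). Kcnd1, the third Kv4 pore gene, stayed low in every library, at 0.322 to 1.06 CPM in wild type and 0.715 to 1.68 CPM in knock-in, with log2 fold changes of 0.87 (edgeR adjusted p = 0.0195) and 0.72 (adjusted p = 0.0822). Kcnh1 was at 2.59 and 0.86 (edgeR adjusted p = 0.0275 and 0.0878), Kcnc1 at 2.04 (adjusted p = 0.0250) and Kcna3 at 1.51 (adjusted p = 0.0259) with 13 libraries. The Kcnh1 call was lost without wild type 4, 5 or 6 or knock-in 4 (log2 fold change 1.09 without the last), the Kcnc1 call without wild type 5 or 6, and the Kcna3 call without wild type 3 or knock-in 6. With an indicator for knock-in 4, 5 and 6 in the fit, none of these 5 was called. The epithelial and mesothelial markers given above were high in the same 3 libraries, and their part in these values was not tested.

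Among the other accessory subunits, those called were higher in knock-in. Of 12 listed, 7 were tested, of which 3 were higher and 0 lower with 13 libraries and 4 were higher and 0 lower with 10, against 23.6% and 22.3% of all genes higher, with medians of 0.64 and 0.51. Kcnab3 had negative values (-0.34 and -0.32) and was not called. Kcne4, which inhibits Kcnq1 channels in expression systems, had 4.15 to 6.80 CPM in wild type and 11.7 to 27.9 CPM in knock-in. Its log2 fold change was 1.96 ± 0.21 (SE, edgeR adjusted p = 1.91e-05) with 13 libraries and 2.24 ± 0.14 (SE, adjusted p = 2.97e-07) with 10. Kcne3 was at 0.88 and 0.96 (edgeR adjusted p = 0.0151 and 0.0127) and the beta subunit Kcnab2 at 0.91 and 0.78 (edgeR adjusted p = 0.00235 and 0.00913). With 10 libraries the Kcnab2 and Kcne3 calls were lost without knock-in 7 (adjusted p = 0.0565 and 0.0509). Kcnip3, a relative of Kcnip2, was called with 10 libraries alone, at 0.45 (edgeR adjusted p = 0.0205) against 0.30 (adjusted p = 0.124), and lost that call without knock-in 1, 2 or 7. Kcnab1 was at 0.64 (edgeR adjusted p = 0.0785) and 0.41 (adjusted p = 0.131). Kcne4 was higher with TMM, DESeq2 size factors, library totals and cardiomyocyte marker scaling. By contrast, Kcnip2 and Kcne1 were lower with TMM, DESeq2 size factors and library totals, and Kcnip2 with marker scaling. With library totals 41.9% and 41.7% of all genes were higher and 11.4% and 10.5% lower. With marker scaling 82.1% and 70.2% were higher and 2.12% and 2.60% lower. Fibroblast markers were higher in part (2 of 8 with 13 libraries and 6 of 8 with 10, 0 lower), with sums of 4415 to 6168 CPM in wild type and 5636 to 8602 CPM in knock-in, and smooth muscle and pericyte sums were 1623 to 2426 and 1654 to 2155 CPM. No marker of either list was at 0 in all libraries, and their part in the rise of Kcne4 was not tested.

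**Figure D5:**
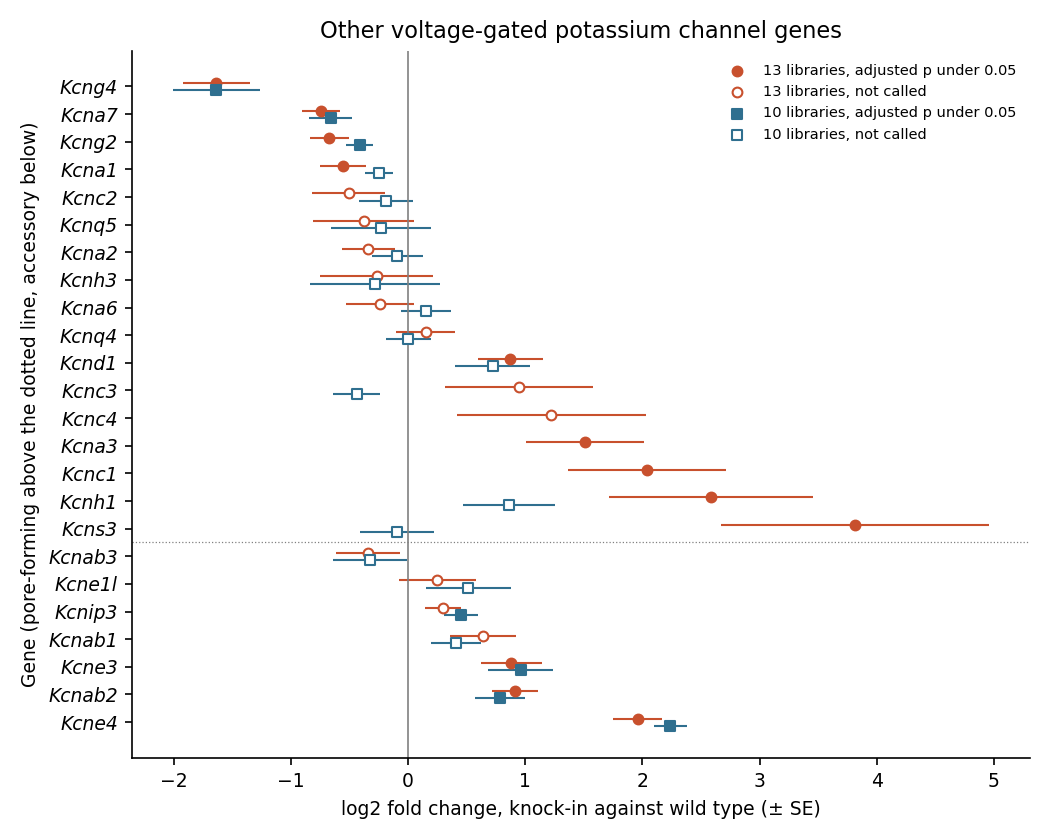
Log2 fold change with SE of 24 other tested voltage-gated potassium channel genes, pore-forming and silent subunits above the dotted line and accessory subunits below, for 13 libraries (red circles) and 10 (blue squares); filled symbols passed an adjusted p of 0.05, and genes without a square were below the filter with 10 libraries; 1 pore-forming subunit of the 25 tested is not drawn. Kcne4 is at 1.96 and 2.24 and Kcng4 at -1.64 in both sets, while Kcns3 is at 3.82 with 13 libraries and -0.09 with 10.

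Partners that anchor, traffic or degrade these channels were mixed. Of 12 listed and tested, 4 were lower and 3 higher with 13 libraries, against 21.0% and 23.6% of all tested genes. With 10 libraries 3 were lower and 4 higher, against 21.3% and 22.3%. Rnf207, a ubiquitin ligase known to alter Kcnh2 channel level, was at -1.47 and -1.27 (edgeR adjusted p = 4.14e-05 and 6.00e-05). Cav3, the muscle caveolin of the surface membrane, was at -1.0 and -0.77 (edgeR adjusted p = 0.000333 and 0.000428), and the LIM protein Fhl2 at -1.33 and -1.03 (edgeR adjusted p = 0.000922 and 0.00359). Actn2, alpha-actinin 2, was called with 13 libraries alone (-0.46, edgeR adjusted p = 0.0312; -0.23, adjusted p = 0.183), a call lost without any 1 of wild type 2, 4 and 5 and knock-in 4, 5, 6 and 7. Dlg4, a scaffold that clusters Kv1 channels, was at 1.01 and 0.84 (edgeR adjusted p = 0.000641 and 0.00112) and filamin A, Flna, at 1.25 and 0.51 (edgeR adjusted p = 0.00727 and 0.000853). Fhl1 was called with 10 libraries alone, at 0.53 (edgeR adjusted p = 0.00170). Rnf207 and Fhl2 were lower than cardiomyocyte markers too, while Cav3 was not called on that scale and Actn2 was higher, as most genes were. On that scale 9 of the 12 were higher and 2 lower in both sets. Of all genes, 82.1% and 70.2% were higher there and 2.12% and 2.60% lower.

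Transcription factors tied to expression of these channels were more often lower. Of 21 listed, 20 were tested, of which 9 were lower and 2 higher with 13 libraries and 9 lower and 3 higher with 10. The medians were -0.24 and -0.22, and of all tested genes 21.0% and 21.3% were lower and 23.6% and 22.3% higher. That balance depends on the scaling. With library totals and 13 libraries 5 were lower (Hey2, Irx4, Klf15, Mef2a and Tbx5) and 6 higher, against 11.4% and 41.9% of all genes. With library totals and 10 libraries 3 were lower (Irx2, Irx4 and Mef2a) and 4 higher (Etv1, Irx5, Nfatc1 and Nfatc4), against 10.5% and 41.7%. Relative to cardiomyocyte markers 0 were lower and 14 and 11 higher. On that scale 2.12% and 2.60% of all genes were lower and 82.1% and 70.2% higher. Irx4, a ventricular homeobox factor, was at -0.97 and -0.84 (edgeR adjusted p = 0.000203 and 0.000324), Mef2a at -0.63 and -0.55 (edgeR adjusted p = 0.000354 and 0.000945) and Tbx5 at -0.89 and -0.61 (edgeR adjusted p = 0.00238 and 0.00500), and Mef2a and Tbx5 were not called with limma on log2(TPM + 1). Nfatc4, a calcineurin-responsive factor, was at 1.24 and 0.73 (edgeR adjusted p = 0.000989 and 0.000504). Irx5, which represses Kcnd2 in the mouse ventricle, had 4.82 to 6.94 CPM in wild type, 7.08 to 9.24 CPM in knock-in 1, 2, 3 and 7 and 39.9 to 110.0 CPM in knock-in 4, 5 and 6. Its log2 fold change was 2.54 (edgeR adjusted p = 0.0106) with 13 libraries and 0.44 (adjusted p = 0.0175) with 10. The call with 13 libraries was lost with an indicator for knock-in 4, 5 and 6 (0.44, edgeR adjusted p = 0.166). The call with 10 ended without knock-in 2 (edgeR adjusted p = 0.0695) and with a replicate block (0.37, adjusted p = 0.222). The epithelial and mesothelial markers were high in the same 3 libraries, and their part in the Irx5 values was not tested. Mean Kcnd2 was 4.45 ± 1.03 TPM (SD, n = 4) in knock-in 1, 2, 3 and 7 and 4.03 ± 0.579 TPM (SD, n = 3) in knock-in 4, 5 and 6, and a relation between the levels of these 2 genes was not tested. Nfatc1 was called with 10 libraries alone, at 0.29 (edgeR adjusted p = 0.0247), and lost that call without any 1 of wild type 3, 4 and 5 and knock-in 1 and 7.

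Markers of other cell types, which bulk RNA holds beside cardiomyocytes, gave these counts in knock-in with 13 and then 10 libraries. Of all tested genes, 21.0% and then 21.3% were lower and 23.6% and then 22.3% higher. For the conduction system 3 of 7 tested were higher and 2 lower, then 2 and 1. For skeletal muscle 2 of 6 were higher and 2 lower, then 2 and 2 of 5. The skeletal muscle sum was 21.4 to 46.6 CPM in wild type, 245 to 1074 CPM in knock-in and 245 to 665 CPM in knock-in 1, 2, 3 and 7. As many of its tested markers were called lower as higher, so that sum does not speak for the list as a whole. Which markers led it is not shown here. For macrophages 6 of 8 were higher and then 8, with 0 lower. For smooth muscle and pericytes 3 of 9 were higher and 2 lower, then 3 and 1, and for endothelium 0 of 8 and then 2 were higher, with 0 lower. For epithelium and mesothelium 3 of 6 and then 0 were higher, for T and B lymphocytes 1 of 6 was higher in both sets and 1 lower with 10, and for adipocytes 0 of 6 changed. For neurons 1 of 3 was higher (Tubb3) and 1 lower (Dbh), then 0 and 1, and for Schwann cells 2 of 7 and then 1 were higher. No marker of these lists was at 0 in all libraries, and the part of these cell types in the levels of the 9 genes was not tested.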

How the data were processed

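Stranded libraries of polyadenylated RNA from mouse right ventricle were sequenced, per the labels' protocols, and the submitters' processing notes list DRAGEN and GRCm39 (mm39). The annotation and the strand used in counting are not given in these sources. The authors deposited an estimated count of reads and a TPM value for each gene, with lengths, per the file headers. Groups came from the titles.

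Estimated counts were rounded, filtered with filterByExpr, scaled by TMM and tested with edgeR 4.0.16 (R 4.3.3; quasi-likelihood, robust). SE was computed as the absolute log2 fold change over the root of F. CPM uses TMM-scaled totals. Totals of 14498336 to 29848597 reads limit precision most for Kcna4. Ratios were tested by exact permutation, and that of Kcne1 to Kcnq1 with 0.01 added to each TPM value. A value was not whole if it differed from a whole number by over 1e-09. The tests were checked on simulated data. Alternatives were DESeq2 (1.42.0) and its size factors, library totals, limma (3.58.1) on log2(TPM + 1) and log2(TPM + 0.1) for genes of at least 1 TPM in 6 libraries, no filter, length offsets, a replicate block, an indicator for knock-in 4, 5 and 6, 4 markers, CPM ratios and each library left out.

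Text names all 9 genes and Dsg2, and from each of 4 pathway lists the 4 smallest p with 13 libraries and any gene in a count of up to 5. A few genes that this rule would name are not reported here, though list counts include them. The genes lost or gained under other scalings, the markers named singly and the contrast of Kcne4 with Kcnip2 and Kcne1 were chosen after their values were seen. For likeness to Kcnd2 the 5 highest r were taken among genes of at least 1 CPM. Listed Bmal1 and Kcne5 were matched as Arntl and Kcne1l by RefSeq synonyms. The 9 genes, the 13 cell type lists and the pathway lists were chosen with earlier results of these data known. The closest pair of libraries in a group, wild type 3 and 6, differed with a chi-square per degree of freedom of 7.19, more than sampling noise gives.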

Additional observations from a re-analysis of the deposited data

Results flagged for a closer look

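Gaps between 1 library and the rest of its group, measured in CPM for the 9 genes and in TPM for the 3 ratios, passed Dixon's 95% limit in 5 of 36 groups tested; chance passes about 1 in 20. Kcnd2 was at 21.8 CPM in knock-in 3, with the remaining 6 knock-in libraries at 12.2 to 15.1 CPM, and was still under every wild-type library. Kcnv2 was at 8.65 CPM in knock-in 3, against 2.48 to 4.21 CPM in the other 6, and the same value of 8.65 CPM passed the limit within knock-in 1, 2, 3 and 7, where the others were at 3.44 to 4.21 CPM. Kcnq1 was at 36 CPM in wild type 2, against 26.6 to 29.7 CPM in the other 5 wild-type libraries. Kcnh2 was at 58.9 CPM in wild type 6, against 68.3 to 72.4 CPM in the other 5.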

How the results depend on the processing

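The calls of Kcnd2, Kcnd3, Kcnip2 and Kcnv2 and their directions held under all 41 alternatives with TMM or in its place and all 28 relative to cardiomyocyte markers. The number of the 9 genes called lower was 7 in 36 of 41 alternatives, 6 in 3 (with 10 libraries, without knock-in 1, without knock-in 7 and with a replicate block) and 4 with limma on log2(TPM + 1) and on log2(TPM + 0.1) with 10 libraries; the number higher was 1 with library totals with 10 libraries (Kcna4) and 0 to 1 when single libraries were left out. Kcna5 changed sign and was called in none of the 41: its log2 fold change was 0.25 with 10 libraries, 0.20 with library totals, 0.39 and 0.43 with limma, 0.011 with a replicate block, and with 10 libraries 0.24 with DESeq2 size factors, 0.48 with library totals, 0.25 with DESeq2, 0.63 and 0.70 with limma, 0.24 without the filter, 0.26 with length offsets and 0.45 with a replicate block; with 13 libraries and the indicator it was 0.25, and leaving out libraries gave -0.18 to 0.42. Relative to the markers, leaving out libraries gave -0.13 to 0.051 for Kcnq1 and -0.15 to 0.070 for Kcnh2. The Kcne1 to Kcnq1 ratio ranged from -0.71 to -0.10 (log2) when libraries were left out. The cause of these changes was not tested.

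Same-numbered libraries did not deviate together (r of -0.113 to 0.0845), and no library correlated best with its own number, so the numbers were not taken as pairs. With a replicate block and 10 libraries, a fit on 3 pairs, the Kcnd2 to Kcnd3 ratio was at -0.95 (exact p = 0.25, the smallest that 3 pairs allow), Kcnip2 to its partners at 0.58 (exact p = 0.25) and Kcne1 to Kcnq1 at 0.18 (exact p = 0.75). Kcne1 lost its call there (adjusted p = 0.337), and relative to the markers 1 gene was called higher, Kcna4 being at adjusted p = 0.0507. Over all genes, calls went from 6340 to 2776 with that block. With library totals 1661 genes were lower and 6110 higher, against 3060 and 3442 with TMM, and with 10 libraries 1528 and 6049, against 3099 and 3241. Kcna4, with 12 to 43 reads, is the gene that depth limits most.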
